A study of Homo sapiens with 34 samples.

Results

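The androgen effect was compared between VCaP and LNCaP, human prostate cancer cell lines grown on plates that carried amorphous calcium phosphate (ACP), a bone-like mineral layer. For each gene, the log2 change from stripped to androgen-supplemented medium in LNCaP was subtracted from the same change in VCaP, so a positive difference is a more positive androgen effect in VCaP. The comparison used 8 of the 34 libraries of the study, chosen by the labels of line, surface and medium. They were VCaP in stripped medium, VCaP in stripped medium with androgen, LNCaP in stripped medium and LNCaP in stripped medium with androgen, with 2 libraries each. Stripped medium holds serum treated with charcoal and dextran, which removes most steroid hormones. The labelled androgen dose was 100 mM for both lines, and the titles name it DHT where the treatment labels name it testosterone, so it is called androgen here. All 8 cultures were on ACP at day 4, and androgen on plain plastic was not analysed here. The labels describe VCaP as bone metastatic and LNCaP as lymph node metastatic. LNCaP was kept in RPMI and VCaP in a mixture of DMEM and F12, so the line and its basal medium cannot be told apart. Nothing in the labels says that replicates came from separate cultures, so the spread that the p-values measure may be technical. That spread was estimated from the replicates of all 34 libraries in 17 groups, not from the 8 compared libraries alone.

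Androgen enters prostate cells, binds a ligand-activated nuclear receptor and sends it to DNA, where it raises secretory products such as the kallikreins, lipid and protein synthesis, and lowers a smaller set of genes. In prostate cancer lines the same hormone can also speed or slow growth, so genes of the cell cycle move with it in either direction. VCaP carries a fusion that places the transcription factor gene ERG under the androgen-responsive TMPRSS2 promoter, which LNCaP lacks.

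Total counts ran from 21.0 M to 30.1 M in the 8 libraries, and replicates correlated across genes at 0.974 to 0.990 (Pearson's r of log2 CPM, read counts scaled to library size). VCaP spread more between replicates than LNCaP, with a biological coefficient of variation of 25.9% against 17.8%. The tests used a spread shared by all groups for each gene, so they do not follow this gap. The luminal keratin and kallikrein markers were present in every library, with a summed level of at least 1877 CPM. Other markers that moved with androgen are given beside the gene groups.

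Proliferation genes gave the clearest contrast between the lines, and parts of their promoters are shown first because sequence elements known from cell cycle promoters can be seen in them. Each window below holds the 250 bases before the RefSeq gene start in the GRCh38.p14 build, 5′ to 3′ on the gene's strand. The reads were counted on hg19, so these coordinates locate the promoters only and were not joined to the counts. Capitals in CDC20 and PLK1, both needed for mitosis, mark the CHR element (TTTGAA) and the CCAAT box (CCAAT). Capitals in TYMS and E2F1, both of the DNA synthesis programme, mark E2F letters (TTTCCCGC or TTTGGCGC). In KLK3, the gene of prostate-specific antigen, they mark the androgen half-site (AGAACA). Both strands were searched, and none of these motifs overlaps another inside the windows shown.
CDC20, chr1:43358731-43358980, plus strand: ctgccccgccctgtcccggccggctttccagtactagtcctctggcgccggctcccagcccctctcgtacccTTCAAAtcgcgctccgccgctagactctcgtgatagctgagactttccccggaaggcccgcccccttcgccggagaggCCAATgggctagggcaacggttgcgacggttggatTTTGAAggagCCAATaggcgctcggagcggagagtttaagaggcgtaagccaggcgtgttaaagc
PLK1, chr16:23678639-23678888, plus strand: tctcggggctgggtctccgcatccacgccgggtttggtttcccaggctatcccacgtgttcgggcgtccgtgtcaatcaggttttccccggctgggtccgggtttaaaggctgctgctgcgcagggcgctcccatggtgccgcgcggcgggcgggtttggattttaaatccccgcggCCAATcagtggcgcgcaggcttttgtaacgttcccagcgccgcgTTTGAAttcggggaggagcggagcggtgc
TYMS, chr18:657403-657652, plus strand: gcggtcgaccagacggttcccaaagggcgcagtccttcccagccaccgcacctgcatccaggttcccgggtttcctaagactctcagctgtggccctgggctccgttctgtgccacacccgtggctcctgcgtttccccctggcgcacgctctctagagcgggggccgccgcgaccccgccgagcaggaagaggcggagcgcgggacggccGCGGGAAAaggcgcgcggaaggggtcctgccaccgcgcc
E2F1, chr20:33686386-33686635, minus strand: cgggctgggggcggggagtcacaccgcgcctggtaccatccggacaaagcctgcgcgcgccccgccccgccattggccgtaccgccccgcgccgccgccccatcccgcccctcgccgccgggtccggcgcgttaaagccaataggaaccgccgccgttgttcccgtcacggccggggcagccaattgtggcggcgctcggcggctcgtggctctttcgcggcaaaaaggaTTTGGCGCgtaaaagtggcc
KLK3, chr19:50854665-50854914, plus strand: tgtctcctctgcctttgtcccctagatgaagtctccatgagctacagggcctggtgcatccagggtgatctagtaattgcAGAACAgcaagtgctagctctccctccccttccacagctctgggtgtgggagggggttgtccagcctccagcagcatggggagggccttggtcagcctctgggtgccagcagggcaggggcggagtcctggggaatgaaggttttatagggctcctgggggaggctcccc
The first CHR match of CDC20 and the TYMS match lie on the opposite strand and so read as reverse complements. In PLK1 the CCAAT box starts 73 bases and the CHR 29 bases before the gene start. In CDC20 both motifs occur 2 times, the nearer pair starting at 55 and 65 bases. The KLK3 half-site starts 170 bases upstream. Over windows from 250 bases before to 50 after the start, 13377 of the 17323 genes tested had a RefSeq sequence. The CHR letters were in 10.2% of them and in 13 of 19 mitosis genes with a sequence. E2F letters were in 3.41% of all windows and in 15 of 28 replication genes. The half-site was in 9.79% of all windows and in 3 of 26 androgen-induced genes, KLK3, FKBP5 and PMEPA1. These matches describe letters and are not binding sites.

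The androgen effect differed between the lines for 1887 of 17323 genes, 10.9% of those tested, at a Benjamini-Hochberg adjusted p below 0.05 in edgeR's quasi-likelihood test. For 933 genes (5.39%) the difference was higher in VCaP and for 954 (5.51%) it was lower. Of the 1887 genes, 1687 had a mean of at least 1 CPM in both lines, in the medium where each line was higher. Most differences were thus not between a line that makes the transcript and one that does not. Of all 17323 genes tested, 12027 met the same limit. Within VCaP 2184 genes rose (12.6%) and 2361 fell (13.6%). Within LNCaP 444 rose (2.56%) and 295 fell (1.7%). A total of 340 genes passed in both lines, which is 7.48% of the VCaP genes and 46.0% of the LNCaP genes. Among these 340, 163 rose in both, 101 fell in both, and 76 moved in opposite directions. Of the 1887 differences, 1411 were called within VCaP only, 167 within LNCaP only, 99 within both and 210 within neither. The LNCaP count of 739 went to between 227 and 266 when either stripped replicate or androgen replicate 1 of LNCaP was left out. The VCaP count went from 4545 to 2386 without VCaP androgen replicate 2 and to 2528 without VCaP stripped replicate 1. The 1887 differences went to 1013 to 1158 when either of those VCaP libraries or any of those 3 LNCaP libraries was left out.

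**Figure D1:**
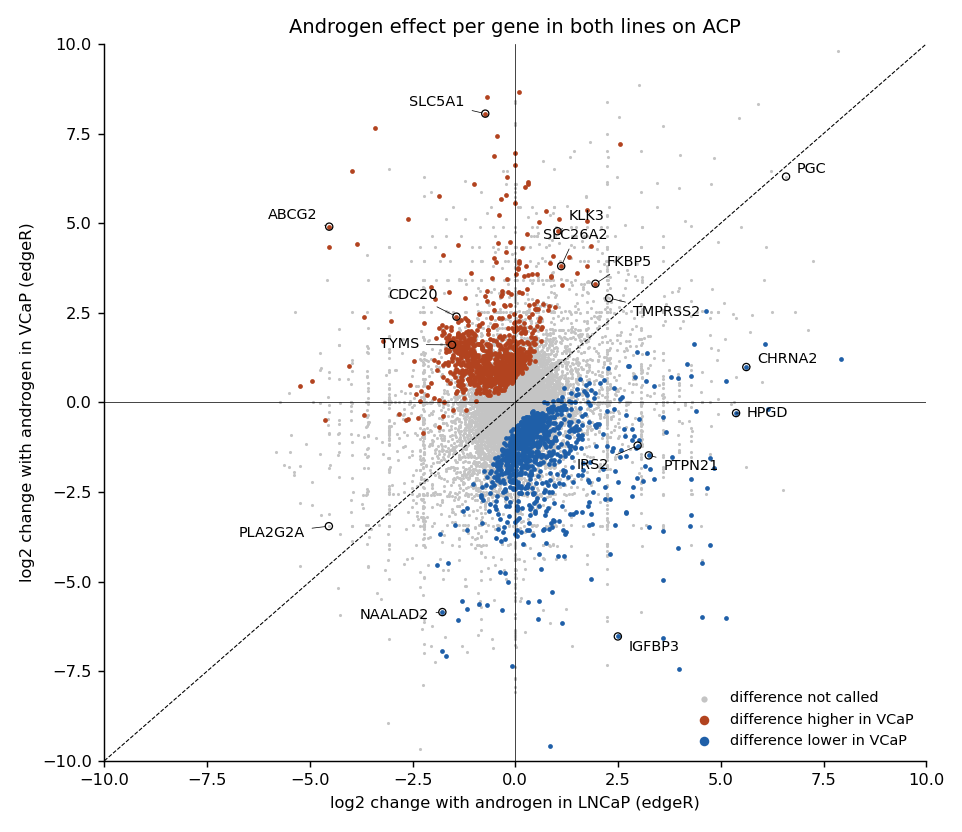
Log2 change with androgen in LNCaP (horizontal) and in VCaP (vertical) for each gene tested, with genes whose difference was called coloured by direction. The dashed line marks equal effects, 2 genes lie outside the axes, and CDC20, TYMS and ABCG2 sit where VCaP is positive and LNCaP negative, with IRS2, PTPN21 and IGFBP3 in the opposite corner.

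Genes that copy and separate chromosomes rose with androgen in VCaP and were lower with androgen in LNCaP. Of 25 mitosis genes, 22 had a difference called higher in VCaP and 0 lower, where 5.39% of all genes were called higher. Of 33 DNA replication genes, 28 were called higher and 0 lower. On the lower side 0 members of either list had even an unadjusted p below 0.05, and DESeq2 and voom called 0. The median difference was 3.02 on the log2 scale for mitosis and 2.07 for replication, against -0.05 over all genes tested. Within VCaP 18 mitosis and 24 replication genes rose, where 12.6% of all genes did. Within LNCaP 10 replication genes and 1 mitosis gene fell, where 1.7% of all genes did. The LNCaP fall was thus mostly not called for single mitosis genes, although the fitted change was negative for each of the 33 and 25 members.

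CDC20, the activator of the complex that starts anaphase, was at 23.9 and 43.5 CPM in the 2 VCaP stripped libraries and at 120 and 234 CPM in the androgen libraries. In LNCaP it was at 53.2 and 55.1 CPM in stripped medium and at 10.2 and 29.9 CPM with androgen. The groups did not overlap in either line, and they moved in opposite directions. The difference was 3.82 ± 0.74 (SE, log2; 95% interval 2.29 to 5.36; adjusted p 0.00206), with a change of 2.39 in VCaP (adjusted p 0.00194) and of -1.43 in LNCaP (adjusted p 0.126). PLK1, a mitotic kinase, differed by 3.65 ± 0.74 (adjusted p 0.00292), and BIRC5, the gene of survivin, by 3.80 ± 0.77 (adjusted p 0.00292).

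TYMS, which makes thymidylate for DNA synthesis, passed within each line. It was at 26.6 and 30.1 CPM in VCaP stripped medium and at 62.1 and 110 CPM with androgen. In LNCaP it went the other way, from 61.3 and 58.9 CPM to 12.0 and 29.3 CPM. Its difference was 3.15 ± 0.53 (adjusted p 0.000648). CDC45, a subunit of the replicative helicase, differed by 3.25 ± 0.73 (adjusted p 0.00536), and RRM2, which supplies deoxynucleotides, by 3.30 ± 0.78 (adjusted p 0.00794). E2F1, a transcription factor of this programme, was near 24 CPM in both VCaP stripped libraries and at 71.3 and 106 CPM with androgen, and differed by 3.03 ± 0.78 (adjusted p 0.0134). CENPA, the centromeric histone, rose from 7.66 and 16.5 CPM to 36.2 and 48.1 CPM in VCaP and fell from 10.4 and 13.4 CPM to 1.62 and 4.64 CPM in LNCaP, with a difference of 3.72 ± 0.68 (adjusted p 0.00129).

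The members that missed the threshold were named after their values were seen. They were TOP2A, CENPF and CENPE in mitosis (differences of 2.20, 2.55 and 1.83, adjusted p 0.0606 to 0.14) and CDT1, POLD1, POLA1, CCNE1 and POLE in replication. TOP2A passed under 6 of 14 alternatives, CENPF under 5, CDT1 under 2 and CENPE under 1. POLA1, POLE and CCNE1, which encode polymerase subunits and cyclin E1, had differences of 0.13 to 0.26, with 95% intervals that reached no further than 1.25. These 3 genes had the smallest differences of the list.

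Control medium, which holds unstripped serum, places these levels. Relative to the mean of a line's stripped libraries, the median mitosis gene was 1.80 and 1.81 higher (log2) in the VCaP control libraries and 1.39 and 1.94 higher in its androgen libraries. In LNCaP it was 0.25 and 0.87 higher in control medium but 0.83 and 2.30 lower with androgen. The median replication gene was 1.78 and 1.67 higher in the VCaP control libraries and 0.84 and 1.30 higher in its androgen libraries. In LNCaP it was 0.51 and 0.13 higher in control medium and 1.41 and 0.73 lower with androgen. The VCaP androgen libraries thus lay around the control libraries for mitosis and below them for replication, while both LNCaP androgen libraries lay below the other LNCaP libraries for both lists. The difference was called higher for 14 to 24 mitosis and 20 to 28 replication genes when 1 library was left out, the mitosis low being 14 without LNCaP androgen replicate 1 or VCaP stripped replicate 1. The calls within a line were less firm. Without VCaP androgen replicate 2 only 4 mitosis and 2 replication genes rose in VCaP, and without VCaP stripped replicate 1 only 3 and 6. In LNCaP 0 replication genes fell without androgen replicate 1, and 1 did without either stripped replicate. RRM2 and E2F1 lost the call without LNCaP androgen replicate 1 or VCaP stripped replicate 1 (E2F1 also without VCaP androgen replicate 2), with differences down to 2.82 and 2.69.

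**Figure D2:**
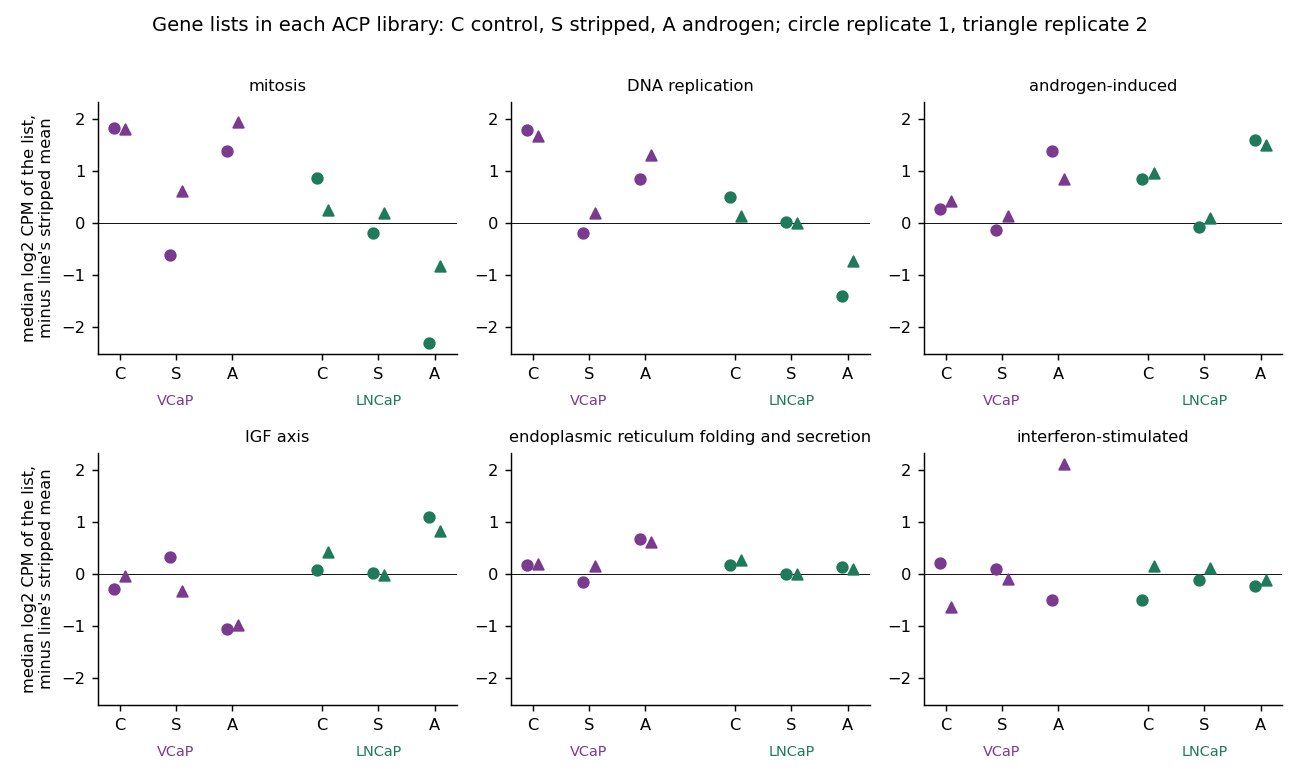
Median log2 CPM of 6 gene lists in each ACP library, relative to the mean of the line's stripped libraries (vertical axis), by line and medium. The mitosis and replication lists are high in the VCaP androgen and control libraries and low in the LNCaP androgen libraries, and the interferon list is high in 1 VCaP androgen library only, at 2.10 against -0.50 in the other.

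Of 15 cell cycle inhibitors and D cyclins, which respectively restrain and drive the cycle, 1 cyclin was called higher and 2 restraining genes were called lower. Over all genes 5.39% were called higher and 5.51% lower. The list's median difference was -0.23, against -0.05 over all genes. The other 12 differences were not called, and whether these counts depart from the shares was not tested. Not every restraining gene moved down in VCaP. CDKN2D, an inhibitor gene named after its values were seen, had 99 and 122 reads in VCaP stripped medium and 240 and 370 with androgen. In LNCaP it had 337 and 260 reads, then 246 and 351. CCND3, which encodes cyclin D3, was higher in VCaP by 1.13 ± 0.28 (adjusted p 0.0115). CDKN2A, the gene of p16, fell in VCaP from 16.1 and 18.7 CPM to 3.03 and 5.69 CPM and lay at 18.7 to 29.4 CPM in the 4 LNCaP libraries, a difference of -1.68 ± 0.41 (adjusted p 0.0102). BTG2, an antiproliferative gene, differed by -1.22 ± 0.34 (adjusted p 0.0227). CCND3 lost its call without VCaP androgen replicate 2 (adjusted p 0.065), CDKN2A without LNCaP stripped replicate 2 or VCaP androgen replicate 1 (adjusted p up to 0.0622), and BTG2 without any 1 of 6 libraries (adjusted p up to 0.114).

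Classical androgen targets answered in both lines, but not by the same amounts. Of 35 androgen-induced genes tested, 22 rose in VCaP (12.6% of all genes did), 23 rose in LNCaP (2.56%) and 15 rose in both. Their median change was 1.28 in VCaP and 1.39 in LNCaP, against -0.02 and 0 over all genes. Between the lines 4 members were called higher in VCaP (KLK3, NCAPD3, SGK1 and FKBP5) and 9 lower, against 5.39% and 5.51% of all genes. Leaving out 1 library gave 3 to 6 higher and 5 to 8 lower. The rises in VCaP went to 12 without VCaP stripped replicate 1 and to 13 without VCaP androgen replicate 1, and those in LNCaP to 12 without LNCaP stripped replicate 1.

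KLK3 was at 36.1 and 120 CPM in VCaP stripped medium and at 3446 and 840 CPM with androgen. In LNCaP it stood at 1560 and 1777 CPM without added androgen and at 3249 and 3553 CPM with it. Its level in stripped medium was thus far higher in LNCaP, and the androgen libraries of the lines overlapped. The change was 4.78 ± 0.60 in VCaP (adjusted p 4.72e-06) and 1.03 ± 0.51 in LNCaP (adjusted p 0.309), a difference of 3.75 ± 0.74 (2.22 to 5.28; adjusted p 0.00235) that ran from 2.40 (without VCaP androgen replicate 1) to 4.87 when 1 library was left out. NCAPD3, a condensin subunit, went from 54.3 and 81.3 CPM to 1349 and 437 CPM in VCaP. Its LNCaP groups overlapped, at 65.1 and 78.3 CPM without and 88.4 and 61.0 CPM with androgen, and it had a difference of 3.66 ± 0.51 (adjusted p 0.000103).

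FKBP5, a cochaperone of steroid receptors, rose in both lines, by 3.31 ± 0.31 in VCaP and 1.95 ± 0.29 in LNCaP. The difference of 1.36 ± 0.40 passed (adjusted p 0.0279), but not without LNCaP stripped replicate 2, LNCaP androgen replicate 2, VCaP stripped replicate 1 or VCaP androgen replicate 1 (0.95 to 1.14, adjusted p up to 0.185). SGK1, a kinase, was higher by 2.50 ± 0.58 (adjusted p 0.00669), and by 1.97 without VCaP androgen replicate 2, where it did not pass. It had 32 and 75 reads in VCaP stripped medium and 106 and 192 with androgen. In LNCaP it went down, from 269 and 206 reads to 125 and 107, a fall that was not called. Its difference thus holds a LNCaP fall as well as a VCaP rise. TMPRSS2, a membrane serine protease, went from 89.8 and 96.6 CPM to 926 and 476 CPM in VCaP and from 196 and 185 CPM to 918 and 934 CPM in LNCaP. The difference of 0.63 ± 0.61 did not pass (-0.63 to 1.88; adjusted p 0.574). KLK2, a kallikrein close in sequence to KLK3, had no change past the threshold in either line (0.91 ± 0.66 in VCaP, 1.79 ± 0.68 in LNCaP) and a difference of -0.88 with an interval of -2.80 to 1.03. ERG went from 126 and 157 CPM to 882 and 574 CPM in VCaP and stayed at 0.66 CPM or less in LNCaP, under 0.5% of the VCaP level, so reads carried over from VCaP libraries cannot be told apart from LNCaP transcripts.

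Among the 9 members called lower, HPGD, which breaks down prostaglandins, was at 1.23 and 1.68 CPM in LNCaP stripped medium and at 72.9 and 47.7 CPM with androgen. In VCaP it was already at 556 and 412 CPM and stood at 384 and 403 CPM with androgen, so all 4 VCaP libraries exceeded every LNCaP library. The difference was -5.67 ± 0.74 (adjusted p 5.83e-05). CHRNA2, a nicotinic receptor subunit, rose in both lines, from 1.10 and 0.67 CPM to 50.2 and 37.6 CPM in LNCaP and from 56.1 and 46.4 CPM to 129 and 74.0 CPM in VCaP, a difference of -4.63 ± 0.53 (adjusted p 7.83e-06). ADAM7, of a family of membrane metalloproteases, went from 0.06 and 0.28 CPM to 3.28 and 6.72 CPM in LNCaP, against 1.61 and 1.39 CPM and then 0.17 and 0.66 CPM in VCaP, a difference of -6.69 ± 1.39 (adjusted p 0.00359). FOLH1, the gene of prostate-specific membrane antigen and named after its values were seen, is held by the list although androgen is known to lower it. It was the list's 1 fall in VCaP, by -3.03 ± 0.41, with -0.65 in LNCaP (adjusted p 0.407), and its difference was -2.39 ± 0.54 (adjusted p 0.00585).

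Among 10 androgen-repressed genes, 4 fell in VCaP (13.6% of all genes did), 5 in LNCaP (1.7%) and 2 in both. Of their differences 1 was called lower. The LNCaP count went to 2 without LNCaP androgen replicate 1 and to 3 without either stripped replicate. CAMK2N1, an inhibitor of a calcium-dependent kinase that was also chosen after its values were seen, fell by 2.59 on the log2 scale in VCaP and by 2.35 in LNCaP, and its difference had an interval of -1.51 to 1.03. Of 12 ETS factors 0 differences passed (smallest adjusted p 0.261, 0 at an unadjusted p below 0.05, and 0 with DESeq2 and voom), and 3 members rose in VCaP and 1 in LNCaP. Of 17 steroid receptors, pioneer factors and coregulators 2 were called, both lower. Over all genes 10.9% of differences were called, and whether these short lists depart from that share was not tested. Of 21 genes of steroid synthesis and inactivation 1 was called, higher. The 1 steroid gene was UGT2B7, which conjugates steroids for excretion and differed by 2.93 ± 0.92 (adjusted p 0.0425; up to 0.149 when 1 of 6 libraries was left out; a difference of 4.98 without VCaP stripped replicate 2). UGT2B genes are close copies of each other, so reads may be split between them.

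**Figure D3:**
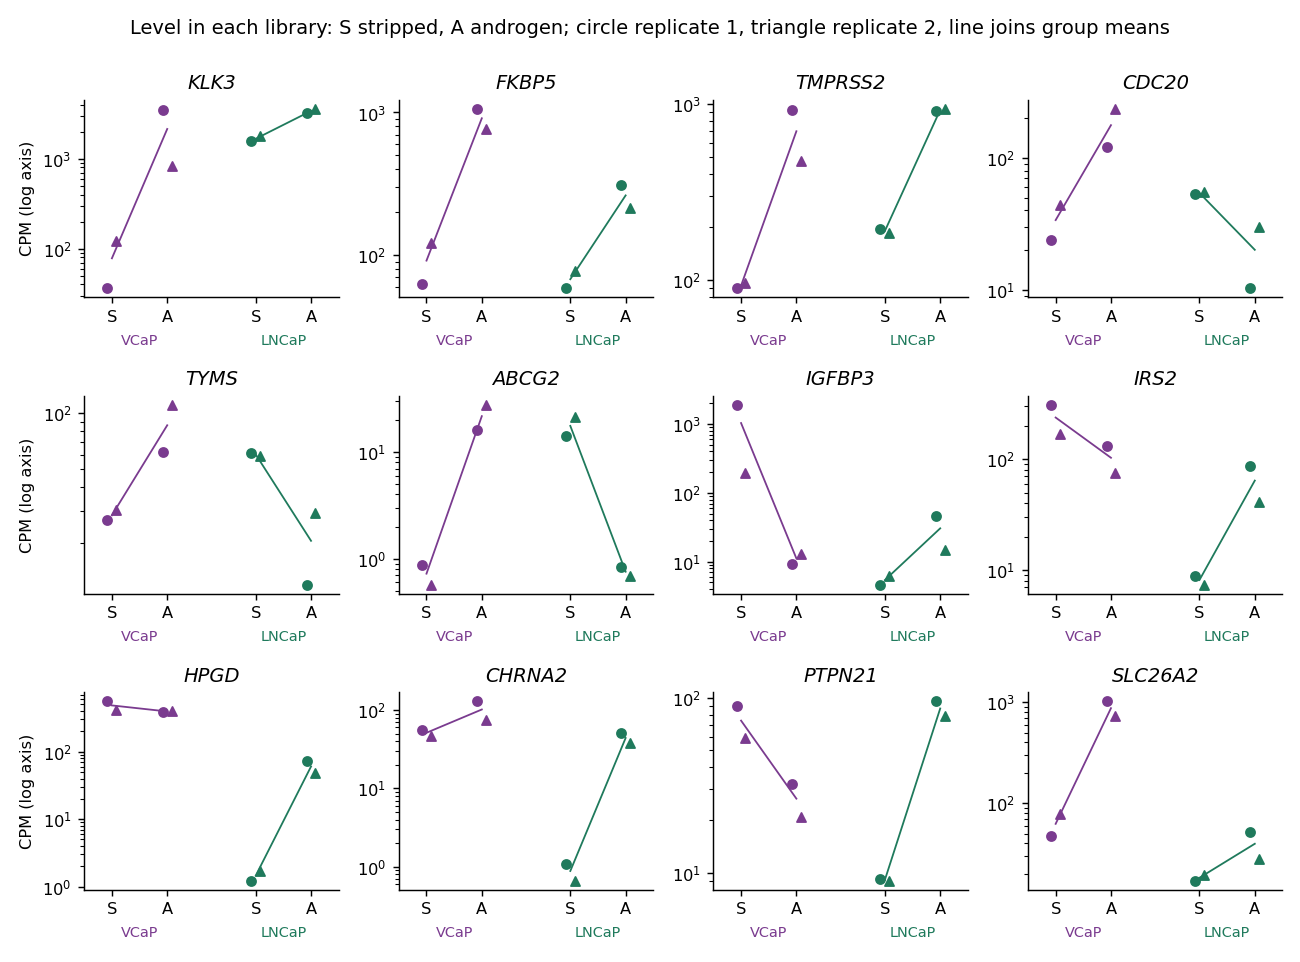
CPM (log axis) of 12 genes in each of the 8 compared libraries, with circles for replicate 1, triangles for replicate 2 and lines between group means. Slopes run in opposite directions in the lines for CDC20, TYMS, ABCG2, IGFBP3, IRS2 and PTPN21, while TMPRSS2 and FKBP5 rise in both.

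Genes of the insulin-like growth factor (IGF) axis mostly fell with androgen in VCaP, and 3 rose in LNCaP. This pathway carries growth signals from IGF1R through the docking proteins IRS1 and IRS2, and secreted IGFBP proteins bind the ligands. Of 10 members, 4 differences were called lower in VCaP (5.51% of all genes were), and the median difference was -2.04. In VCaP 7 members fell and 1 rose, where 13.6% of all genes fell and 12.6% rose. In LNCaP 2.56% of all genes rose.

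IGFBP3 was at 1869 and 195 CPM in the VCaP stripped libraries and at 9.22 and 13.1 CPM with androgen. LNCaP held 4.66 and 6.16 CPM in stripped medium and 46.1 and 14.9 CPM with androgen. The VCaP stripped replicates differed by more than the LNCaP groups did. The groups did not overlap in either line, which is a description only, since the rule that named this gene asked for separate libraries. The difference was -9.03 ± 1.17 (adjusted p 5.39e-05), and it ran from -9.88 to -6.63 when 1 library was left out. IGFBP5 fell from 6.53 and 10.2 CPM to 0.61 and 1.10 CPM in VCaP and stood at 0.783 CPM or less in LNCaP, a difference of -3.33 ± 0.76 (adjusted p 0.00617; 0.136 without LNCaP androgen replicate 2).

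IRS2 fell in VCaP from 306 and 169 CPM to 131 and 74.7 CPM. In LNCaP it rose from 8.86 and 7.39 CPM to 86.6 and 41.4 CPM. The difference was -4.18 ± 0.57 (adjusted p 8.52e-05). IRS1, named because it was the remaining member called, fell by 1.25 on the log2 scale in VCaP and rose by 1.44 in LNCaP (difference -2.70 ± 0.49, adjusted p 0.00129). IGF1R, chosen after its values were seen, rose in both lines, by 1.14 ± 0.31 and 2.53 ± 0.35, and its difference missed the threshold (-1.39, adjusted p 0.0524) but passed under 7 of 14 alternatives (adjusted p 0.0149 to 0.236 over all 14). Without 1 library, 4 to 6 members were called lower, and 2 to 7 fell within VCaP, the fewest without VCaP stripped replicate 1 (3 without androgen replicate 2 and 4 without androgen replicate 1 of VCaP).

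Of 22 cholesterol genes, 13 rose in VCaP (12.6% of all genes did), 11 in LNCaP (2.56%) and 4 in both. The VCaP count went to 7 without VCaP stripped replicate 2 or androgen replicate 2, and the LNCaP count to 3 to 7 without any 1 LNCaP library. EBP, a sterol isomerase late in the pathway, differed by 1.58 ± 0.32 (adjusted p 0.00245), with 36.7 and 30.2 CPM turning to 87.5 and 126 CPM in VCaP. Its LNCaP groups overlapped, between 73.6 and 91.9 CPM. LSS, which closes the sterol rings, rose in LNCaP from 129 and 117 CPM to 258 and 272 CPM and stayed between 281 and 378 CPM in VCaP, a difference of -1.07 ± 0.25 (adjusted p 0.00679). FDPS, an enzyme of isoprenoid synthesis, was the other difference called higher (1.11 ± 0.31, adjusted p 0.0226), and it lost the call without any 1 of 4 libraries (adjusted p up to 0.226), with a difference of 0.67 without VCaP androgen replicate 2.

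Of 14 fatty acid genes, 13 rose in VCaP and 4 in LNCaP, with 4 differences higher (FADS2, ELOVL6, SREBF1 and ACSL1) and 2 lower. Over all genes 12.6% rose in VCaP and 2.56% in LNCaP, with 5.39% of differences higher and 5.51% lower. Leaving out 1 library gave 1 to 5 differences called higher, 1 without VCaP stripped replicate 1 and 2 without VCaP androgen replicate 1 or 2, LNCaP stripped replicate 1 or LNCaP androgen replicate 2. The VCaP rises went to 8 without VCaP stripped replicate 1. FADS2, a desaturase, went from 26.2 and 34.5 CPM to 180 and 180 CPM in VCaP. In LNCaP, where it was abundant throughout, it went from 734 and 729 CPM to 1084 and 1448 CPM, and the difference was 1.78 ± 0.33 (adjusted p 0.00153). ELOVL5, an elongase of polyunsaturated fatty acids, rose in both lines but more in LNCaP, from 363 and 465 CPM to 4442 and 3248 CPM, against 155 and 184 CPM to 429 and 450 CPM in VCaP. Its difference was -1.84 ± 0.32 (adjusted p 0.000954). ELOVL7 was lower in VCaP as well (-1.75 ± 0.50, adjusted p 0.0254), while ELOVL6 (1.61 ± 0.44, adjusted p 0.0191) and SREBF1, a regulator of lipid genes (0.99 ± 0.28, adjusted p 0.0215), were higher in VCaP. These last 3 genes each lost the call when 1 of 4 or 5 libraries was left out, at adjusted p values up to 0.151.

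Genes of protein folding and export in the endoplasmic reticulum rose in VCaP. Of 24 members 15 rose there, where 12.6% of all genes did. A total of 6 differences were called higher, where 5.39% of all genes were. In LNCaP 0 members rose in edgeR's test, where only 2.56% of all genes did. At an unadjusted p below 0.05, 4 members rose in LNCaP, and DESeq2 called 1 and voom 2. The list's median change was 0.59 in VCaP and 0.09 in LNCaP. KDELR3, a retrieval receptor, went from 5.22 and 3.24 CPM to 28.4 and 26.0 CPM in VCaP and from 4.27 and 4.27 CPM to 7.53 and 7.54 CPM in LNCaP (difference 1.87 ± 0.44, adjusted p 0.00693). DNAJB11, a chaperone partner, differed by 1.29 ± 0.27 (adjusted p 0.00381), and SDF2L1 by 1.14 ± 0.33 (adjusted p 0.027; up to 0.15 when 1 of 6 libraries was left out). Leaving out 1 library gave 3 to 10 members called higher, 3 without VCaP stripped replicate 1 or LNCaP androgen replicate 1 and 10 without VCaP stripped replicate 2. The VCaP rises went to 7 without VCaP stripped replicate 1 and to 10 without VCaP androgen replicate 2.

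In the lists of polyamine metabolism and of ATF4 and amino acid supply the median difference was 0.15 and 0.55, against -0.05 over all genes. In VCaP 17 of 20 members of the ATF4 list had a positive change, with a list median of 0.59. Only 4 of the 20 were called as rising, where 12.6% of all genes were, and 16 were not called. Over all genes 10.9% had a called difference. ODC1, the rate-limiting enzyme of polyamine synthesis, went from 186 and 268 CPM to 2176 and 1922 CPM in VCaP. In LNCaP it went from 392 and 453 CPM to 567 and 458 CPM, a change of 0.28 that did not pass (adjusted p 0.557). The difference was 2.90 ± 0.31 (adjusted p 3.29e-06), while 2 other members of 11 were lower: ARG2, which makes ornithine from arginine (-1.92 ± 0.47, adjusted p 0.00981), and AGMAT (-2.28 ± 0.60, adjusted p 0.0157), each lost without any 1 of 3 libraries (adjusted p up to 0.113). Of 20 genes of the ATF4 stress and amino acid list, 2 were higher and 1 lower. ATF3, a stress-induced transcription factor, went from 2.54 and 1.23 CPM to 28.6 and 26.3 CPM in VCaP and from 44.9 and 49.2 CPM to 82.7 and 85.7 CPM in LNCaP (difference 3.04 ± 0.48, adjusted p 0.000368). ATF5, a related factor, was higher by 1.11 ± 0.25. SLC38A2, an amino acid carrier, was the member called lower (-1.39 ± 0.39, adjusted p 0.0223; up to 0.26 when 1 of 5 libraries was left out, and a difference of -0.69 without LNCaP androgen replicate 1).

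Over all genes 5.39% of differences were called higher and 5.51% lower. Of 22 glycolysis and hypoxia genes, 3 were higher in VCaP (GAPDH, ENO1 and PGAM1, by 0.77 to 1.04). Each of the 3 lost the call when 1 of at least 4 libraries was left out, ENO1 with any of the 8 (adjusted p up to 0.192). Of 14 glycosylation genes, ST6GAL1 and B4GALT1, which add sugars to glycans, were higher and EDEM3 was lower. Of 12 Wnt genes AXIN2 alone was called, lower by -1.65 ± 0.47 (adjusted p 0.0242). These 4 genes too were lost when 1 of 4 or 5 libraries was left out, at adjusted p values up to 0.144.

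**Figure D4:**
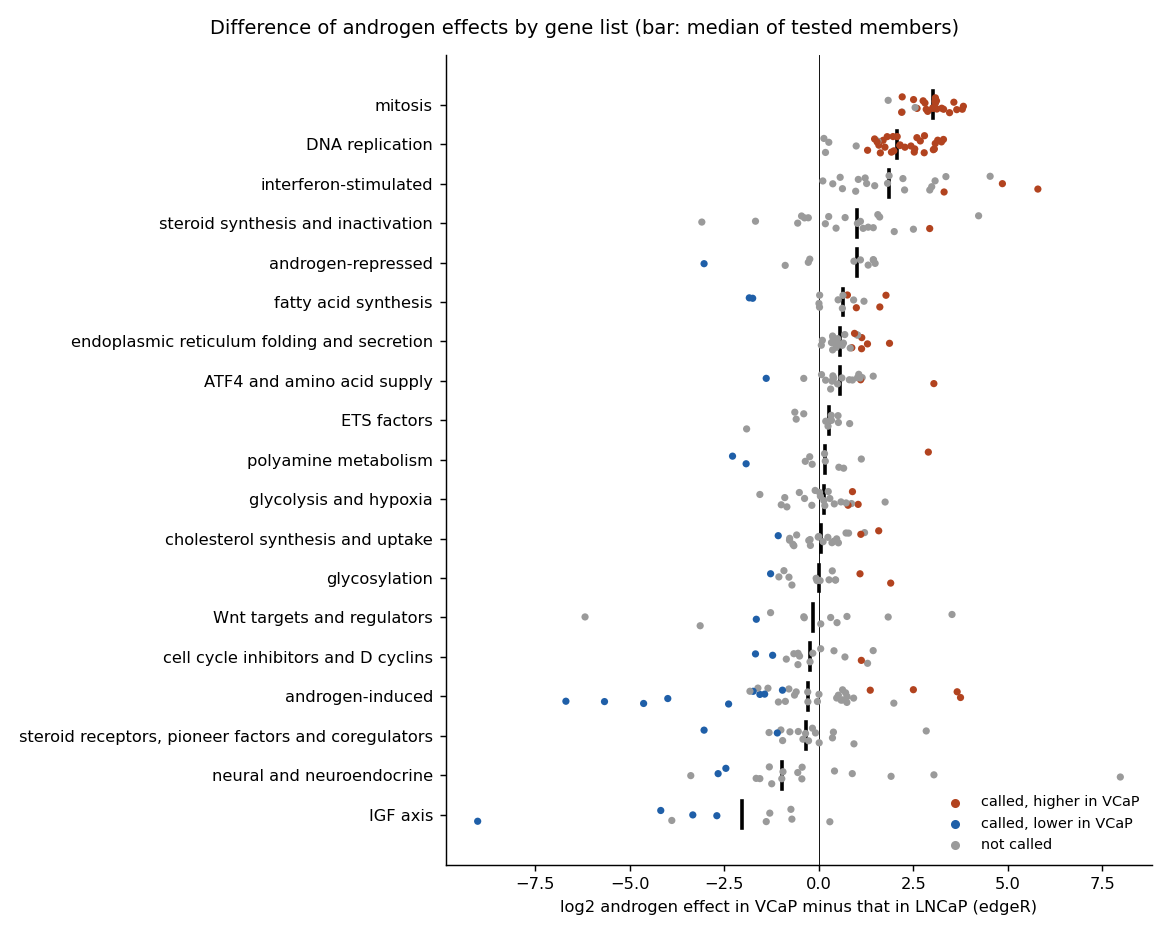
Difference of the androgen effects (VCaP minus LNCaP, log2) for each tested member of the 19 gene lists, with a bar at each list's median and colours for members called. Mitosis and replication genes lie to the right and the IGF axis to the left, and 1 member is not drawn.

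Interferon-stimulated genes were higher in VCaP through 1 library. Of 21 members, 10 rose in VCaP (12.6% of all genes did), and 3 differences were called higher (IFI27, OAS2 and IFI6), where 5.39% of all genes were. IFI6 was at 12.5 and 5.94 CPM in VCaP stripped medium, at 6.10 CPM in androgen replicate 1 and at 119 CPM in androgen replicate 2. IFI27 was at 0.56 CPM and 11.8 CPM in those androgen libraries, and OAS2 at 0.13 and 8.67 CPM. Without VCaP androgen replicate 2, 0 members were called within VCaP or for the difference, and the differences of OAS2 and IFI6 turned to -0.20 and -0.07, and that of IFI27 to 2.33. The differences also numbered 0 without LNCaP stripped replicate 2 or LNCaP androgen replicate 1, 1 without LNCaP stripped replicate 1 or either VCaP stripped replicate, and 11 without VCaP androgen replicate 1. The VCaP rises were 3 without either VCaP stripped replicate and 16 without androgen replicate 1. Androgen replicate 2 of VCaP was also the high library for PI3, an elastase inhibitor (0.78 and 26.9 CPM with androgen, 0.68 and 0.61 CPM without), and CCL20, a chemokine (0.65 and 9.94 CPM with androgen, 1.07 and 0.94 CPM without). Their differences of 8.25 ± 2.46 (adjusted p 0.0315) and 6.07 ± 1.52 (adjusted p 0.0125) fell to 4.09 and 3.03 and lost the call without it. PI3 lost it also without any 1 of 6 other libraries, and CCL20 without LNCaP stripped replicate 2 or androgen replicate 1. Without LNCaP androgen replicate 2 the CCL20 difference was 10.04. Leukocyte markers moved in VCaP as a list, from 7.17 to 13.6 CPM summed in stripped medium to between 82.8 and 158 CPM with androgen, against 0.933 CPM or less in LNCaP. LYZ gave nearly all of this (12.4 and 6.35 CPM, then 81.2 and 154 CPM), while CD3E was at 0 in the 8 libraries and PTPRC at 0.049 CPM or less in VCaP. Their part in the result was not tested.

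Neural and neuroendocrine genes differed at 2 of 18 members, both lower, where 10.9% of all genes had a called difference. In VCaP 7 of the 18 fell, where 13.6% of all genes did, and 0 rose. NCAM1, a neural adhesion molecule, fell in VCaP from 6.83 and 7.05 CPM to 1.64 and 0.35 CPM (difference -2.66 ± 0.81, adjusted p 0.0364; up to 0.212 when 1 of 5 libraries was left out; a difference of -4.16 without VCaP androgen replicate 1). GRIN3A, a glutamate receptor subunit, rose in LNCaP from 3.30 and 5.50 CPM to 21.9 and 29.9 CPM and lay at 1.72 to 3.85 CPM in VCaP (-2.46 ± 0.55, adjusted p 0.00525; 0.0626 without VCaP stripped replicate 1). The neuroendocrine markers were uneven in VCaP stripped medium, with CHGA at 125 CPM in replicate 1 and 697 CPM in replicate 2. Fibroblast markers were also higher there (40.3 and 161 CPM summed against 7.18 and 8.10 CPM with androgen), almost wholly from LUM at 36.7 and 153 CPM. The part of these markers in the results was not tested.

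Among genes of at least 5 CPM in a group and with separate libraries, ABCG2 had the largest positive difference. ABCG2, a drug efflux pump, went from 0.88 and 0.57 CPM to 15.9 and 27.4 CPM in VCaP and from 14.0 and 21.2 CPM to 0.83 and 0.69 CPM in LNCaP. The ranges changed places, and the difference of 9.43 ± 0.75 (7.88 to 10.98; adjusted p 5.83e-08) ran from 8.96 to 9.77 without 1 library. SLC5A1, a sodium-glucose cotransporter, was at 0 and 0.29 CPM and then 50.2 and 33.8 CPM in VCaP, against 2.13 and 1.44 CPM and then 1.14 and 1.01 CPM in LNCaP (8.79 ± 0.87, adjusted p 1.26e-06). Its difference was 13.91 without VCaP stripped replicate 2, which left that group with 0 reads and makes this value no bound, and 7.89 to 9.04 without any other library. PIGR, which carries antibodies across epithelium, was at 0.15 and 0.98 CPM and then 9.52 and 51.0 CPM in VCaP and between 2.38 and 3.75 CPM in LNCaP (6.03 ± 0.93, adjusted p 0.000446). SERPINA3, the inhibitor antichymotrypsin, reached 107 and 276 CPM from 1.46 and 3.85 CPM in VCaP and lay at 0.87 to 1.42 CPM in LNCaP (5.84 ± 0.89, adjusted p 0.000269).

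SEMA3G, a secreted semaphorin, had 0 reads in both VCaP stripped libraries and 56 and 29 with androgen, at least 27.7-fold higher against a floor of 3 counts over the group. It stood at 3.77 to 9.50 CPM in LNCaP, and its difference had an adjusted p of 0.000461.

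Of the 8 largest negative differences chosen in the same way, several were in genes near 0 in LNCaP. GNG2, a G protein subunit, fell from 36.9 and 44.8 CPM to 2.03 and 5.65 CPM in VCaP and was at 0.207 CPM or less in LNCaP (difference -5.84 ± 1.17, adjusted p 0.00258; -8.91 without LNCaP stripped replicate 1, which left that group with 0 reads). LNCaP had 2 and 0 GNG2 reads in stripped medium and 6 and 6 with androgen. Its LNCaP means of 0.03 and 0.20 CPM were under 0.5% of the VCaP stripped mean of 40.8 CPM. As for ERG, reads carried over from VCaP libraries cannot be told apart from LNCaP transcripts, and the size of the difference rests on few LNCaP reads. In PDE1B, a phosphodiesterase, ADAM19 and ATP2B2, a calcium pump, VCaP fell from between 4.14 and 7.90 CPM to 0.65 CPM or less. LNCaP had 0 reads of these 3 genes in stripped medium and 7, 3 and 3 over both libraries with androgen. The sizes of their differences (adjusted p 0.00257, 0.0157 and 0.0484) therefore rest on few LNCaP reads, and ADAM19 was lost without LNCaP androgen replicate 2 (a difference of -4.96) and ATP2B2 without any 1 of 6 libraries. GOLGA7B had 0 LNCaP reads in stripped medium and 19 with androgen, and its VCaP groups overlapped between 6.26 and 10.5 CPM (adjusted p 0.0314, lost without any 1 of 5 libraries). DNAJC15, a mitochondrial cochaperone, fell in VCaP from 15 and 18 reads to 0, at least 11.3-fold lower, and was at 11.3 to 12.8 CPM in all LNCaP libraries (adjusted p 0.00358).

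Opposite calls in both lines were held by 76 genes, 42 of them up in VCaP and down in LNCaP. Besides ABCG2 and CENPA, the largest of these were S100P, a calcium-binding protein (8.53 and 3.81 CPM to 58.3 and 56.5 CPM in VCaP, 304 and 147 CPM to 62.8 and 45.8 CPM in LNCaP, difference 5.28 ± 0.78), and C4orf19 (difference 4.69 ± 0.57). With androgen the S100P libraries of the lines overlapped, at 45.8 to 62.8 CPM. In the other direction PTPN21, a tyrosine phosphatase, fell from 89.3 and 58.6 CPM to 32.1 and 20.9 CPM in VCaP and rose from 9.22 and 9.04 CPM to 95.3 and 78.2 CPM in LNCaP. Its difference was -4.73 ± 0.39 (adjusted p 5.83e-08). RFPL1S and TRG-AS1 differed by -5.32 ± 0.55 and -5.28 ± 0.71. Both are antisense transcripts, and the use of strand in counting is not given in the sources used here, so their reads cannot be told apart from those of overlapping genes. FAXDC2 differed by -5.21 ± 1.09 (adjusted p 0.00337), with 70.9 and 6.86 CPM in the LNCaP androgen libraries, and lost the call without LNCaP androgen replicate 1 (-2.71) or VCaP stripped replicate 1.

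Of the 264 genes called in both lines in the same direction (163 up, 101 down), 23 had a called difference. SLC26A2, a sulfate transporter, rose 3.80 ± 0.31 in VCaP, from 47.0 and 78.0 CPM to 1018 and 725 CPM, and 1.12 ± 0.28 in LNCaP, from 17.1 and 19.4 CPM to 51.5 and 27.9 CPM (difference 2.68 ± 0.40, adjusted p 0.000207). NAALAD2, a peptidase related to FOLH1, fell from 274 and 461 CPM to 4.50 and 8.23 CPM in VCaP and from 12.0 and 9.21 CPM to 1.87 and 4.31 CPM in LNCaP (difference -4.08 ± 0.70, adjusted p 0.000789). CHRNA2 and ELOVL5, given above, are also of this kind and kept the call without any 1 library. Calls that were lost when 1 of 4 to 7 libraries was left out were those of NKILA, a long noncoding RNA (difference 2.54 ± 0.64), CACNG4, a calcium channel subunit (-2.72 ± 0.87), FFAR2, a fatty acid receptor (1.17 ± 0.33), NIPSNAP3A (1.37 ± 0.44) and TMPRSS6, a serine protease with 9 and 16 reads in VCaP stripped medium and 0 with androgen (adjusted p 0.0389).

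The other 241 shared genes had no called difference, which does not show equal responses. PGC, the stomach protease precursor progastricsin, rose from 0.34 and 0.70 CPM to 39.8 and 44.5 CPM in VCaP and from 2.07 and 2.10 CPM to 344 and 58.0 CPM in LNCaP, with a difference of -0.29 and an interval of -3.00 to 2.42. UGT2B28, which glucuronidates androgens, went from 0 reads to 51 in VCaP, at least 16.6-fold higher, and from 0.91 and 1.26 CPM to 77.2 and 16.8 CPM in LNCaP. PLA2G2A, a secreted phospholipase, fell by 3.45 on the log2 scale in VCaP and by 4.54 in LNCaP, with a difference of 1.08 (-0.66 to 2.83). REG4, a secreted lectin, fell from 1791 and 845 CPM to 171 and 191 CPM in VCaP and from 718 and 571 CPM to 39.8 and 1.80 CPM in LNCaP, with a difference of 2.09 (-0.85 to 5.04). Without LNCaP androgen replicate 1 it was 5.62 and passed (adjusted p 0.0439). In LNCaP with androgen the replicates of these 3 genes, PGC, UGT2B28 and REG4, lay far apart, and PLA2G2A was closer.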

How the data were processed

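Poly(A) RNA was sequenced from human prostate cancer lines, and the authors deposited 1 table of raw counts per gene for all 34 libraries. Per the submitters' processing notes, STAR, HTSeq and the hg19 build were used, with versions and strand setting not given in the sources used here. Counts were fitted with edgeR 4.0.16 (R 4.3.3) by quasi-likelihood on all 34 libraries in 17 groups, with TMM scaling, filterByExpr at a minimum count of 10 (17323 of 26336 genes kept) and Benjamini-Hochberg adjustment over all genes at 0.05. CPM use TMM library sizes. Each SE was derived from the fitted change and its F statistic, and the interval is at 95%. A group at 0 was given a floor of 3 counts over the group. The scripts were tested on simulated data. Alternatives were DESeq2 1.42.0, voom with quality weights (limma 3.58.1), RLE scaling, no filter, a fit of the 8 libraries, a replicate block, a log2 limit of 1 and leaving out each library.

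Named genes were 5 set targets, then, among called differences with separate libraries and a group mean of at least 5 CPM, the 8 largest on each side. Added to these were the 4 largest opposite and 2 largest same-direction calls on each side, the 2 largest shared changes on each side without a called difference, and up to 3 members a side of each list. The members and lists were chosen with earlier results of these data known. Replicate numbers come from the titles. Deviations of same-numbered libraries correlated at -0.124 in VCaP and 0.110 in LNCaP, so the numbers were not used to pair samples. Replicates of a group differed by more than sampling noise (chi-square per gene 25.9 to 67.7). Some genes that the rule or the lists hold are counted but not reported here.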

Additional observations from a re-analysis of the deposited data

Results flagged for a closer look

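The androgen effect differed between VCaP and LNCaP for 1887 genes by the test of the difference itself. The named genes below passed that test, each value being the change in VCaP minus the change in LNCaP on the log2 scale. Among set androgen targets these were KLK3 (3.749) and FKBP5 (1.361). Among the largest positive differences were ABCG2 (9.432), SLC5A1 (8.787), SEMA3G (8.576), PI3 (8.253), CCL20 (6.069), PIGR (6.034) and SERPINA3 (5.837). The largest negative ones were in IGFBP3 (-9.025), PDE1B (-8.731), ADAM19 (-8.548), DNAJC15 (-7.262), ATP2B2 (-7.183), ADAM7 (-6.691), GOLGA7B (-6.331) and GNG2 (-5.844). Of these, SEMA3G, PDE1B, ADAM19, DNAJC15, ATP2B2 and GOLGA7B, and also TMPRSS6 below, had a group at 0 reads, and the sizes of their fitted differences depend on the prior count. In the fit of the 8 compared libraries, FKBP5, PI3, CCL20, ADAM19 and ATP2B2 did not pass. Nor did FAXDC2, NKILA, CACNG4, TMPRSS6, NIPSNAP3A and FFAR2, given below. Without VCaP androgen replicate 2 the differences of PI3 and CCL20 were 4.088 and 3.032.

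Opposite calls within the lines were held by S100P (5.279), C4orf19 (4.687), CENPA (3.719), RFPL1S (-5.321), TRG-AS1 (-5.283), FAXDC2 (-5.209) and PTPN21 (-4.726). Calls in the same direction, with a difference in size, were held by SLC26A2 (2.685), NKILA (2.537), CHRNA2 (-4.635), CACNG4 (-2.717), TMPRSS6 (-5.155), NAALAD2 (-4.076), NIPSNAP3A (1.373) and FFAR2 (1.169).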

How the results depend on the processing

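The 1887 differences became 938 when only the 8 compared libraries were fitted, and 1013 to 2023 when 1 library was left out. DESeq2 gave 2468, voom 1656, no filter 2035, RLE scaling 1927 (861 higher, 1066 lower) and a limit of 1 on the log2 scale 1646. The 4545 genes of VCaP became 2710 with that limit and 2386 to 4555 without 1 library. The 739 genes of LNCaP became 1243 with DESeq2, 1543 with voom, 318 in the fit of the 8 libraries and 227 to 946 without 1 library. The VCaP count was 4792 with DESeq2, 3066 with voom and 3339 in the fit of the 8 libraries. The excess of VCaP over LNCaP calls was thus smaller with voom than in the reported fit. With the replicate number as a block within each line the counts were 1985, 4660 and 782, and with the VCaP androgen numbers crossed, chosen after seeing the data, 2070 and 4845. Of 96 genes named with a difference, 79 were called, 38 kept the call under every alternative run for them and 41 lost it under at least 1. The fit of the 8 libraries lost 29, voom 12, the block 7, RLE scaling 3, DESeq2 and no filter 1 each, and a left-out library 12 to 27. Another 6 that were not called became called under at least 1. The differences of OAS2 and IFI6 ran from -0.1999 to 5.851 and from -0.06879 to 4.244 when 1 library was left out, and reversed without VCaP androgen replicate 2. Where 1 library is left out, the lone replicate of its group is assumed to vary like the other groups. The cause of these changes was not tested. With 2 libraries a group, intervals of the difference were often wider than 2 log2 units.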

Other observations

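MDAPCa2a, another prostate cancer line grown on ACP with and without androgen, had 1 gene called for androgen within the line by edgeR, and 397 at an unadjusted p below 0.05. Its median change was 0.49 on the log2 scale for the replication list and 0.59 for the mitosis list, against -0.12 for the androgen-induced list. The mitosis level was -1.04 and 1.04 in its stripped libraries, relative to their mean, and 0.88 and 1.07 with androgen, and the replication level was -0.40 and 0.40 and then 0.61 and 0.44, so both androgen libraries stood far from stripped replicate 1 and near stripped replicate 2. Its KLK3 level was 11697 and 7006 CPM in stripped medium and 6772 and 7286 CPM with androgen.

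Genes that passed in LNCaP moved less in VCaP on balance. Those 444 that rose in LNCaP had a median change of 1.32 there and of 0.46 in VCaP, with 325 of them positive in VCaP. The 295 that fell had a median of -1.48 in LNCaP and of -0.38 in VCaP, with 182 negative in VCaP. These genes were chosen by their LNCaP change, so the larger LNCaP values are a description only.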
